A study of Mus musculus with 4 samples.

Results

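Mesp1, Mesp2, Msgn1 and Ripply2 are 4 genes of the forming mesoderm that are read here in single cells of the gastrulating mouse embryo. They were taken by name from the count tables. The MS-LS table lists 3 of them among 16639 genes, the OB-EB table lists 3 among 16341, and the EHF table lists all 4 among 18640. Msgn1 is not listed in the MS-LS and OB-EB tables, so it has no value there. The tables hold unique molecular identifiers (UMIs), each standing for 1 captured RNA molecule, in single-cell libraries of TnEGP-CreERT2/+; R26Rtdtomato/R26Rtdtomato embryos, in which nuclear GFP and an inducible Cre are expressed downstream of endogenous T and a tdTomato reporter is recombined after tamoxifen. All embryos carried both alleles and all mothers received 0.08 mg of tamoxifen per body weight by oral gavage, so no library is an untreated control. MS-LS embryos (mid to late streak) were collected at E6+21h after tamoxifen at E6+5h, OB-EB embryos (no bud to early bud) at E7+3h after tamoxifen at E6+21h, and EHF embryos (early headfold) at E7+14h after tamoxifen at E7+7h. Embryos of a stage were pooled before dissociation.

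Mesp1 and Mesp2 encode related basic helix-loop-helix factors. Mesp1 marks mesoderm as it leaves the primitive streak, including precursors of the heart, and Mesp2 acts later in the anterior presomitic mesoderm, where it sets the border of the next somite. Msgn1 encodes a further basic helix-loop-helix factor, of the posterior presomitic mesoderm, and Ripply2 encodes a repressor partner that limits T-box factors such as Tbx6 where a somite border forms. Tbx6 and the Notch and Wnt pathways act upstream of this group in the presomitic mesoderm, and Eomes and T act upstream of Mesp1 in the streak.

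In GRCm38, Mesp1 lies on chromosome 7 from 79792241 to 79793788 on the minus strand, and Mesp2 on chromosome 7 from 79810727 to 79813439 on the plus strand. The 2 genes face away from each other with 16938 bases between them. Msgn1 lies on chromosome 12 from 11208360 to 11208972 on the minus strand, and Ripply2 on chromosome 9 from 87015537 to 87019917 on the plus strand. No other annotated gene overlaps any of them. The longest run of bases shared by the annotated Mesp1 and Mesp2 transcripts is 42. RefSeq promoters of GRCm38.p6, which run from 250 bases before to 50 bases after the start of a gene, matched all 4 genes. Those of Mesp1, Mesp2 and Msgn1 are shown because each holds letters of a factor family that is read beside these genes in the results. Capitals mark the T-box letters AGGTGT and the LEF/TCF letters CTTTGA on either strand.
Mesp1 promoter, chr7:79793541-79793840, minus strand: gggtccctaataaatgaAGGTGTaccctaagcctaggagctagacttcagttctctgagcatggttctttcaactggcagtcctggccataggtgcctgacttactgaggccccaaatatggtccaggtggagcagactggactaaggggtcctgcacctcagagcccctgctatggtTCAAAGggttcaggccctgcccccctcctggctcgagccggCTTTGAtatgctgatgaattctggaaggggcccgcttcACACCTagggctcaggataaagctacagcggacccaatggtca
Mesp2 promoter, chr7:79810477-79810776, plus strand: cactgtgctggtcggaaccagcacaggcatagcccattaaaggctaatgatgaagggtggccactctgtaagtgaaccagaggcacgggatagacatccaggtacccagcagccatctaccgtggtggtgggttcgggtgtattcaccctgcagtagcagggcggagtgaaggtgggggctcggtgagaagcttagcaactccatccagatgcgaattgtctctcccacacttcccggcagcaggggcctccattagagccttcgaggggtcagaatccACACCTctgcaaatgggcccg
Msgn1 promoter, chr12:11208899-11209198, minus strand: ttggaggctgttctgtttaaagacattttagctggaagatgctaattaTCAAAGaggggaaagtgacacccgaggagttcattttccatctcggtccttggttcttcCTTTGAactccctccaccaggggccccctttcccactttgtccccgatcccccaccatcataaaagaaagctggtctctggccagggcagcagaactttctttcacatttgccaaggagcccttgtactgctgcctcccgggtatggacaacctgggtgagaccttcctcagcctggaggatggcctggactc

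The Mesp1 promoter held AGGTGT at 233 bases before the start and, on the opposite strand, at 7 bases after it. It held CTTTGA at 72 and 31 bases before the start. The Mesp2 promoter held AGGTGT once, on the opposite strand, 29 bases after the start. The Msgn1 promoter held no AGGTGT and held CTTTGA at 202 and 143 bases before the start, and the Ripply2 promoter held neither. Of 27025 RefSeq promoters, 13.9% held AGGTGT and 16.2% held CTTTGA, so matches of this kind are common. The letters TGGGAA of RBPJ, the factor of the Notch pathway, were found once, in the Msgn1 promoter 114 bases before the start on the opposite strand, and in 25.5% of all promoters. The letters TATAAA were found in none of the 4 promoters and in 14.2% of all. The RefSeq starts of Mesp1 and Msgn1 lie 198 and 24 bases inside the genes as annotated above. The CTTTGA matches of Mesp1, at 72 and 31 bases before its RefSeq start, thus lie within the annotated gene and not upstream of it.

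The libraries of MS-LS, OB-EB and EHF embryos held 3635, 3994 and 3494 cells with 17966956, 12181436 and 20376539 UMIs, and the median cell held 4251, 2620.5 and 5584 UMIs. A pair of EHF tables agreed in each of 65128160 places and was counted as 1 library. The libraries shared 12 to 18 cell barcodes. Each stage is thus 1 library and no test between stages was possible. Levels are given in UMIs per 1000000 UMIs (CPM) with exact Poisson 95% intervals, and shares of cells with exact binomial (Clopper-Pearson) 95% intervals. Ratios carry an exact conditional binomial interval. All of these cover counting error only.

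Mesp1 was the most often counted of the 4 genes at each stage and was highest at OB-EB. It had 63.1 CPM (95% interval 59.5 to 66.9, 1134 UMIs) at MS-LS, 116 CPM (110 to 122, 1415 UMIs) at OB-EB and 22.7 CPM (20.7 to 24.8, 462 UMIs) at EHF. The 3 intervals did not overlap. In whole libraries, fewer cells of a type and less RNA per cell cannot be told apart. The level at OB-EB was 1.84-fold that at MS-LS (log2 ratio 0.88, interval 0.77 to 0.99), and the level at EHF was lower than at OB-EB by a log2 ratio of -2.36 (-2.51 to -2.20). In the latter comparison the median of all 14064 genes tested was 0.36, and in the former it was -0.05 over 13273 genes.

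Mesp2 followed another course. It had 5.84 CPM (4.78 to 7.07, 105 UMIs) at MS-LS, 5.75 CPM (4.48 to 7.26, 70 UMIs) at OB-EB and 1.42 CPM (0.95 to 2.04, 29 UMIs) at EHF. The MS-LS and OB-EB intervals overlapped, with a log2 ratio of -0.02 (-0.48 to 0.43), and both lay above that of EHF, which differed from OB-EB by a log2 ratio of -2.01 (-2.69 to -1.37). Mesp2 UMIs were 8.47% of the UMIs of both Mesp genes at MS-LS (6.98 to 10.2), 4.71% at OB-EB (3.69 to 5.92) and 5.91% at EHF (3.99 to 8.37).

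Ripply2 was sparse and, like Mesp1, highest at OB-EB. It had 1.17 CPM (0.72 to 1.79, 21 UMIs) at MS-LS, 4.52 CPM (3.40 to 5.88, 55 UMIs) at OB-EB and 2.55 CPM (1.91 to 3.35, 52 UMIs) at EHF. OB-EB was 3.86-fold above MS-LS (log2 ratio 1.95, 1.20 to 2.75), and EHF was below OB-EB by a log2 ratio of -0.82 (-1.40 to -0.25) and above MS-LS by 1.13 (0.37 to 1.93). The EHF UMIs lay in 29 cells, and 1 cell held 8 of them. Without that cell the EHF level was 2.16 CPM (1.57 to 2.90). Msgn1 had 21 UMIs in 21 EHF cells, 1.03 CPM (0.64 to 1.58), with never more than 1 UMI in a cell. Ripply1, the paralogue of Ripply2, did not reach the 20 UMIs needed for a comparison.

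**Figure D1:**
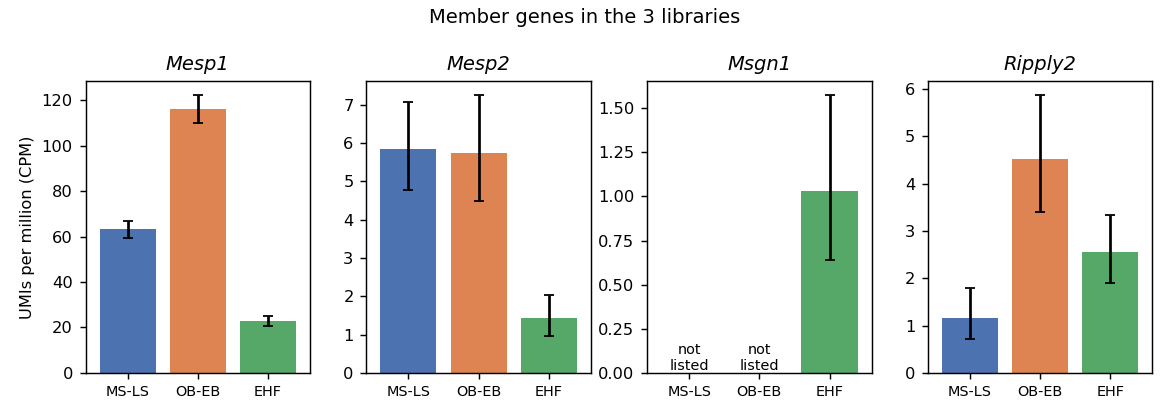
Level of each gene (y axis, CPM) at each stage (x axis), each with its own scale. Bars are the level of 1 library and lines the Poisson 95% interval. Mesp1 is highest at OB-EB with 116 CPM, Mesp2 is lowest at EHF with 1.42 CPM, and Msgn1 is listed at EHF only.

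The share of cells with a UMI depends on depth, so cells were also thinned to 1500 UMIs each, which left out 101, 406 and 165 shallower cells. Mesp1 was then found in 7.47% of MS-LS cells (6.62 to 8.39), 14.0% of OB-EB cells (12.9 to 15.2) and 3.18% of EHF cells (2.61 to 3.84). Before thinning the shares were 15.6%, 20.9% and 7.81%. In clusters named extra-embryonic ectoderm-like or visceral endoderm-like and, at EHF, parietal endoderm-like, types in which these genes are not known to act, Mesp1 was found after thinning in 0.52%, 2.01% and 0.47% of cells, with 5.98, 12.6 and 1.70 CPM at median depths of 4885, 3157 and 6640 UMIs. These values are the background for the levels that follow. In the same cells Mesp2 had 7, 1 and 0 UMIs, Ripply2 had 0, 1 and 0, and Msgn1 had 1 at EHF.

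Cells of each library were clustered without the 4 genes, and a cluster was named only where its markers allowed. At MS-LS, Mesp1 was highest in the nascent mesoderm-like clusters 6 and 14, led by Lefty2 and Myl7, with 374 CPM (334 to 417, 229 cells) and 264 CPM (232 to 300, 107 cells). An unnamed cluster 4 led by Foxf1, Hand1 and Kdr, genes of extra-embryonic and lateral mesoderm, had 187 CPM (163 to 214, 268 cells). The primitive streak-like cluster 8, led by Fst, T and Mixl1, had 124 CPM (107 to 142, 207 cells). The definitive endoderm-like cluster 12 had 17.99 CPM (10.1 to 29.7) and the epiblast-like cluster 10 had 14.1 CPM (8.51 to 22.1), and the unnamed cluster 15, led by the blood regulators Lmo2 and Fli1, had 29.1 CPM (13.9 to 53.4). Mesp1 was thus lower in the streak-like cells than in the nascent mesoderm-like cells and the Foxf1-led cells, with no overlap of intervals.

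Mesp2 at MS-LS lay in fewer of these cells. It had 46.7 CPM (33.4 to 63.6, 40 UMIs) in cluster 6, 20.9 CPM (12.6 to 32.7, 19 UMIs) in cluster 14, 13.5 CPM (8.49 to 20.5, 22 UMIs) in the streak-like cluster 8 and 6.11 CPM (2.46 to 12.6, 7 UMIs) in the Foxf1-led cluster 4. Clusters 6, 8 and 14 held 77.1% of its UMIs. Mesp2 made up 11.1% of the UMIs of both Mesp genes in cluster 6 (8.06 to 14.8) and 3.17% in cluster 4 (1.28 to 6.42), so the balance of the 2 genes differed between these clusters by more than counting error. Ripply2 had 6 UMIs in each of clusters 6, 8 and 14, 3.69 to 7.01 CPM, and 1 in cluster 4.

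At OB-EB, 3 unnamed clusters had like Mesp1 levels. Cluster 2, led by Myl7, Ifitm1 and Lhx1, had 335 CPM (297 to 376, 378 cells). Cluster 5, led by Lefty2, T and Mixl1, had 326 CPM (297 to 357, 304 cells), and cluster 3 had 307 CPM (273 to 343, 375 cells). The 3 intervals overlapped. The 3 clusters held 75.1% of the Mesp1 UMIs, 87.1% of the Mesp2 UMIs and 83.6% of the Ripply2 UMIs of this library. Mesp2 was at 16.4 CPM in clusters 2 and 3 and 21.2 CPM (14.4 to 30.1) in cluster 5, and Ripply2 at 16.4, 12.3 and 13.7 CPM in clusters 2, 3 and 5, with overlapping intervals. Cluster 6, led by Hand1, Pmp22 and Foxf1, had 124 CPM of Mesp1 (103 to 147, 303 cells), with 3 Mesp2 and 2 Ripply2 UMIs. Cluster 9, whose cells had a median of 1432 UMIs, had 165 CPM of Mesp1 (124 to 215). The epiblast-like clusters 1 and 12 had 16.9 and 10.8 CPM in this library, about the background in extra-embryonic cells.

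At EHF the 4 genes were split among clusters. The highest Mesp1 level, 228 CPM (198 to 262, 207 UMIs in 146 cells), was that of the unnamed cluster 8, led by Cdx4, Evx1os, Hoxaas3 and Hoxd9 and with Foxf1 and Fgf8 among its leading genes, most of them genes of the posterior embryo. This cluster held 44.8% of the Mesp1 UMIs of the library. The presomitic mesoderm-like cluster 4, led by Aldh1a2, Pcdh19, Meox1 and Tbx6, had 67.1 CPM (51.9 to 85.3, 185 cells), and the presomitic mesoderm-like cluster 12, led by Gal, Mixl1, T and Hes7, had 34.6 CPM (21.9 to 51.9, 119 cells). Mesp1 was 3.40-fold higher in cluster 8 than in cluster 4 (log2 ratio 1.77, 1.36 to 2.19). The unnamed cluster 21, led by Spin2c, Crip2, Plac8 and Hand1, had 105 CPM (65.1 to 161, 21 UMIs in 10 cells) at a median of 1856 UMIs, and 1 of its cells held 7 of these UMIs. The anterior paraxial-like cluster 3 had 33.0 CPM, the allantois-like cluster 14 had 33.0 CPM, the mesenchyme-like cluster 17 had 20.4 CPM, the cardiomyocyte-like cluster 20 had 7.11 CPM and the endothelium-like cluster 22 had 5.36 CPM. In the definitive endoderm-like, erythroid-like and node-like clusters 23, 15 and 27 no Mesp1 UMI was counted.

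Ripply2 and Mesp2 were instead highest in counts in the Aldh1a2- and Meox1-led presomitic mesoderm-like cluster 4. Its presomitic score was 2.47 and the next, of paraxial mesoderm, was 1.87. Aldh1a2 and Meox1 are themselves markers of paraxial mesoderm here. Levels of the presomitic-like class moved with the clustering, as given in the closing section, so the name is not firm. Ripply2 had 24 UMIs in cluster 4 (24.4 CPM, 15.6 to 36.3), 1 UMI in cluster 8 and none in the T- and Hes7-led presomitic cluster 12. Cluster 4 was thus 22.1-fold above cluster 8 (log2 ratio 4.47, 1.85 to 9.83), a fold that rests on 1 UMI in cluster 8. With 3 UMIs set as a floor for cluster 12, cluster 4 would be 5.41-fold above it. On the counts as they are, the interval of this ratio began at a log2 ratio of 2.03. Mesp2 had 14 UMIs in cluster 4 (14.2 CPM, 7.78 to 23.9), 6 in cluster 8 (6.62 CPM, 2.43 to 14.4), 5 in cluster 3 and none in cluster 12. The log2 ratio of cluster 4 to cluster 8 was 1.11 (-0.36 to 2.77), which includes 0. Mesp2 made up 17.5% of the UMIs of both Mesp genes in cluster 4 (9.91 to 27.6) and 2.82% in cluster 8 (1.04 to 6.03). Msgn1 was spread over cluster 4 with 7 UMIs (7.11 CPM, 2.86 to 14.7), cluster 8 with 5 (5.51 CPM) and cluster 12 with 4 (6.01 CPM), so its levels in these 3 clusters could not be told apart at this depth.

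An unnamed EHF cluster 18 of 103 cells, led by Crabp1, Ifitm1 and Pdlim4, had 76.1 CPM of Ripply2 (42.6 to 126, 15 UMIs in 6 cells) and 127 CPM of Mesp1 (82.1 to 187). Its cells had a median of 1703 UMIs, against 5584 in the library. A single cell held 8 of its 15 Ripply2 UMIs, and without it the level was 36.0 CPM (14.5 to 74.2). Clusters 4, 18 and 3 together held 84.6% of the EHF Ripply2 UMIs.

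**Figure D2:**
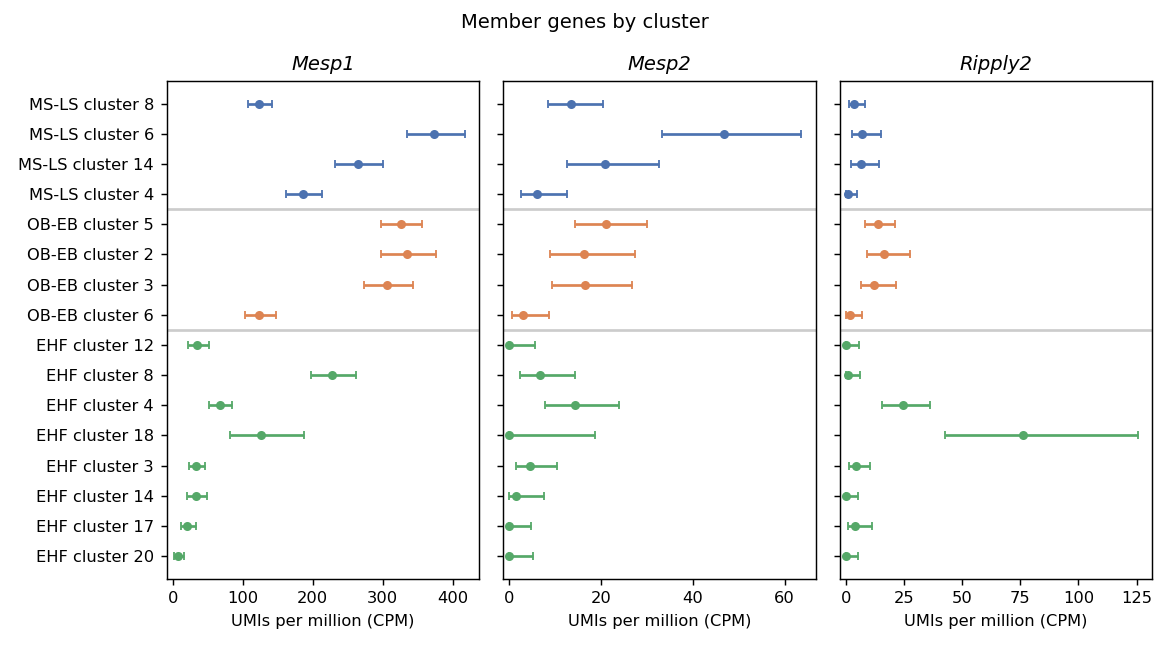
Level of Mesp1, Mesp2 and Ripply2 (x axes, CPM) in mesodermal and streak clusters of each stage (y axis), with Poisson 95% intervals. At EHF the highest Mesp1 point is cluster 8 with 228 CPM, whereas Ripply2 is at 24.4 CPM in cluster 4 and 76.1 CPM in the shallow cluster 18.

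Cells were also grouped with no clustering, by UMIs of T, which marks the streak and posterior, of Tbx6, which marks presomitic mesoderm, and of Meox1, which marks the anterior presomitic mesoderm and somites. A cell with no UMI of a gene may still hold its RNA, so these groups are enriched and not pure. At EHF, Ripply2 had no UMI in 444 cells with T only (floor of 3 UMIs, 1.11 CPM) and none in 159 cells with T and Tbx6 (3.00 CPM). It had 1 UMI in 79 cells with Tbx6 only, 2.35 CPM (0.06 to 13.1). It reached 28.2 CPM (14.6 to 49.3, 12 UMIs in 4 cells) in 67 cells with Tbx6 and Meox1, 40.6 CPM (17.5 to 80.0, 8 UMIs) in 30 cells with T and Meox1, and 54.6 CPM (31.8 to 87.4, 17 UMIs in 9 cells) in 56 cells with Meox1 only. The cell with 8 Ripply2 UMIs is in the last group, which had 29.2 CPM (13.3 to 55.3) without it. The level therefore stood in the groups with Meox1. The 153 cells with Meox1 held 37 of the 52 Ripply2 UMIs, and their level was 51.4-fold that of the other cells (log2 ratio 5.68, 4.78 to 6.65, and 5.34 without the cell with 8 UMIs). The Meox1 groups were chosen after values were seen. The other cells, here and for the genes below, include all types of the library, which raises the fold. With 3 UMIs set as a floor for cells with T and Tbx6, cells with Meox1 only would be 18.2-fold above them. That is a log2 ratio of 4.19, and 3.28 without the cell with 8 UMIs.

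Mesp2 at EHF had 2.58 CPM (1.04 to 5.31) in cells with T only, no UMI in cells with T and Tbx6 and 7.05 CPM (1.45 to 20.6, 3 UMIs) in cells with Tbx6 only. It had 2.35 CPM (0.06 to 13.1, 1 UMI) in cells with Tbx6 and Meox1, 25.4 CPM (8.24 to 59.2, 5 UMIs) with T and Meox1, and 19.3 CPM (7.07 to 41.9, 6 UMIs) with Meox1 only. Cells with Meox1 held 12 of the 29 Mesp2 UMIs and were 14.7-fold above the others (log2 ratio 3.88, 2.68 to 5.03). Of these 12 UMIs 11 lay in cells with no Tbx6 UMI. Among cells with Tbx6, those with and without Meox1 had 1 and 3 Mesp2 UMIs (log2 ratio 0.16, -5.55 to 3.80), too few to tell them apart.

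Mesp1 at EHF was less unequal. It had 50.8 CPM (42.7 to 60.1) in cells with T only, 43.0 CPM (31.1 to 57.9) with T and Tbx6, 96.3 CPM (69.1 to 131) with Tbx6 only, 58.8 CPM (38.1 to 86.8) with Tbx6 and Meox1 and 77.1 CPM (49.4 to 115) with Meox1 only. In 30 cells with T and Meox1 it had 86.3 CPM (50.3 to 138). Cells with Tbx6 only were 2.24-fold above cells with T and Tbx6 (log2 ratio 1.16, 0.51 to 1.82) and 1.89-fold above cells with T only (0.92, 0.38 to 1.43). The ratio of cells with T and Tbx6 to cells with T only was -0.24 (-0.77 to 0.26), and -1.72 with groups read after thinning, so the order of these groups is unsure. The intervals of the groups with Meox1 overlapped one another. Among cells with Tbx6, those with and without Meox1 had a Mesp1 ratio of -0.00 (-0.71 to 0.66). Cells with Meox1 were 3.47-fold above all others (log2 ratio 1.80, 1.40 to 2.17), a smaller ratio than those of Mesp2 and Ripply2, whose intervals lay above it. Msgn1 had 7 UMIs in cells with T only, 6 with T and Tbx6, 2 with Tbx6 and Meox1 and none in cells with Meox1 only, where 3 UMIs would be 9.63 CPM.

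**Figure D3:**
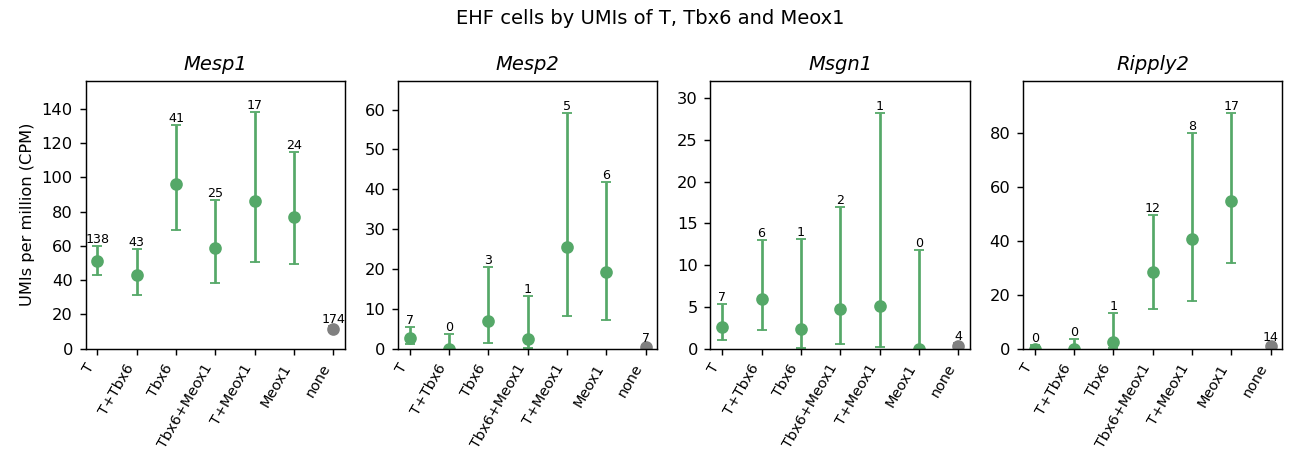
Level of each gene (y axes, CPM) in EHF cells grouped by which of T, Tbx6 and Meox1 they hold UMIs of (x axis), with Poisson 95% intervals and the number of UMIs above each. Ripply2 is at 0 or near it without Meox1 and at 28.2 to 54.6 CPM in the groups with Meox1, whereas Mesp1 is at 43.0 to 96.3 CPM in all groups but the last, in which none of the 3 genes was found.

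At MS-LS and OB-EB, cells with a Tbx6 UMI were few and held higher levels of the 3 listed genes than the whole library. At MS-LS, 37 such cells had 263 CPM of Mesp1 (202 to 336), 37.5 CPM of Mesp2 (17.2 to 71.2, 9 UMIs) and 12.5 CPM of Ripply2 (2.58 to 36.6, 3 UMIs). At OB-EB, 68 such cells had 302 CPM of Mesp1 (238 to 378), 39.8 CPM of Mesp2 (19.1 to 73.2, 10 UMIs) and 19.9 CPM of Ripply2 (6.46 to 46.4, 5 UMIs). At EHF the 305 cells with Tbx6 had 58.9 CPM of Mesp1 (48.3 to 71.0), 2.16 CPM of Mesp2 (0.59 to 5.53) and 7.02 CPM of Ripply2 (3.74 to 12.005). Within cells with Tbx6, Mesp1 and Mesp2 were thus lower at EHF than at both earlier stages with no overlap of intervals, while the Ripply2 intervals overlapped. At OB-EB, 25 cells with T and Tbx6 had 417 CPM of Mesp1, 2.13-fold the level of the 639 cells with T only (log2 ratio 1.09, 0.65 to 1.51), and 64.2 CPM of Mesp2, 4.82-fold (2.27, 0.94 to 3.42). The former log2 ratio was 0.21 where the groups were read after thinning each cell to 1500 UMIs. Near groups were mixed for Mesp1. Cells with Tbx6 only over T only were at -0.04 (-0.70 to 0.55) at OB-EB and 1.07 (0.62 to 1.49) at MS-LS. At MS-LS, 8 cells with T and Tbx6 over T only were at 0.21 (-0.75 to 1.03), with no Mesp2 UMI.

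Eomes and T act upstream of Mesp1, and Mesp1 was read in cells with either. At MS-LS it had 150 CPM (134 to 167) in 282 cells with both, 132 CPM (108 to 158) in 187 cells with T and no Eomes UMI, 75.3 CPM (68.4 to 82.8) in 1011 cells with Eomes and no T UMI, and 29.4 CPM (26.0 to 33.1) in cells with neither. Cells with Eomes alone include those of the extra-embryonic ectoderm, which expresses it. At OB-EB the corresponding levels were 221, 198, 126 and 87.1 CPM, in the same order. At EHF they were 13.4, 52.1, 1.41 and 17.1 CPM, and the 183 cells with Eomes and no T UMI had 2 Mesp1 UMIs. Cells with T were thus above cells with Eomes and no T UMI at all 3 stages. Among cells with T, the interval of the ratio of cells with to cells without Eomes included 0 at MS-LS (log2 ratio 0.19, -0.13 to 0.51) and OB-EB (0.16, -0.11 to 0.42). The MS-LS ratio was -0.24 with groups read after thinning, so it gave no direction. At EHF the 40 cells with both were lower (-1.96, -3.85 to -0.58), on 4 Mesp1 UMIs.

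Joint detection in a cell was read after thinning and set beside the product of the shares in the whole library. That product is the number of joint cells that independent detection would give. Cells of types that hold neither gene raise the ratio to it. At MS-LS, 15 of 3534 thinned cells held Mesp1 and Mesp2, 5.28 times the product (2.96 to 8.72). At OB-EB, 8 cells did, 2.28 times the product (0.99 to 4.498), which includes 1. Without thinning, 68 of the 95 MS-LS cells with Mesp2, 71.6%, also held Mesp1, as did 61.5% of 65 at OB-EB and 73.9% of 23 at EHF. For Ripply2 the unthinned shares with Mesp1 were 85.0% of 20 cells, 44.9% of 49 and 41.4% of 29. In thinned EHF cells Ripply2 met Mesp1 in 3 cells, 6.73 times the product (1.39 to 19.7). No thinned EHF cell held both Mesp2 and Ripply2, from 7 and 14 cells, so thinning left too few to judge. Without thinning 5 cells did, 26.2 times the product (8.50 to 61.1). These lay in clusters 3, 4 and 5, none had a Tbx6 UMI and 4 had a Meox1 UMI. The cells in clusters 3 and 5 were deep, with 12651 and 9923 UMIs against a library median of 5584. The cell in cluster 5, an unnamed cluster led by Gbx2 and Hes3, had no UMI of T, Tbx6 or Meox1. Msgn1 was found with Mesp1 in 5 unthinned cells and with Mesp2 or Ripply2 in none, where the products were 0.14 and 0.17 cells, so no separation can be read from this.

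Cells with a T or Mixl1 UMI, the streak group, were then split by Mesp1. At MS-LS 328 had a Mesp1 UMI and 451 had none, at OB-EB 341 and 484, and at EHF 131 and 595. The cells with Mesp1 were deeper, with medians of 5712.5, 3542 and 6606 UMIs against 4639, 2991 and 5621. Genes were counted as higher or lower where the CPM differed by over 2-fold and the interval of the ratio excluded 1, among genes with at least 20 UMIs over both groups. This compares cells within a library and replaces no replicate.

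At MS-LS, genes of the Notch pathway and of segment determination were higher in cells with Mesp1. Of the segmentation clock and Notch list, 4 of 6 tested genes were higher and none lower, against 1.8% and 4.16% of all 8967 genes tested. They were the Notch ligands Dll1 (33.7 against 8.48 CPM, log2 ratio 1.99, 1.27 to 2.76) and Dll3 (44.1 against 12.1, 1.87, 1.26 to 2.51), the Notch modifier Lfng (1.69, 0.39 to 3.17) and the receptor Notch1 (1.49, 0.39 to 2.72). Of the segment determination list, 4 of 5 were higher, with the adhesion genes Pcdh19 (21.4 against 2.83 CPM, 2.92, 1.76 to 4.31) and Pcdh8 (1.79, 0.89 to 2.78), the ephrin receptor Epha4 (1.76, 1.18 to 2.37) and the forkhead factor Foxc1 (2.07, 0.82 to 3.51). Cer1, a secreted antagonist made by endoderm and anterior mesoderm, was lower (-1.55, -1.94 to -1.18). None of 9 Wnt and FGF genes of the posterior, none of 2 somite genes and none of 4 streak inducers passed in either direction. Mesp2 was 25.01 against 3.63 CPM (2.78, 1.76 to 3.99).

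Of 10 tested genes known to rise with MESP1 when it is supplied to cells, 7 were higher at MS-LS, with Snai1, which drives the epithelial-to-mesenchymal transition, at 52.3 against 15.3 CPM (1.77, 1.23 to 2.34), the receptor Pdgfra at 55.5 against 14.9 CPM (1.89, 1.35 to 2.47) and Rasgrp3, an activator of Ras proteins, at 36.4 against 7.67 CPM (2.25, 1.51 to 3.05). The others were Cxcr4, Tbx20, Gata6 and Kdr, with log2 ratios of 1.09 to 1.74. Of 6 genes known to fall with it, 3 were lower, namely the endoderm factors Foxa2 (-1.71, -2.17 to -1.28) and Sox17 (-1.45, -2.16 to -0.78) and the epiblast and neural factor Sox2 (-1.32, -1.90 to -0.78).

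Over all lists, 12 of 43 tested genes were higher and 3 lower at OB-EB, against 15 and 4 of 42 at MS-LS. The OB-EB library was shallower, with a median of 2620.5 UMIs a cell against 4251. Of the Notch list 2 of 6 were higher, of segment determination 5 of 7, of posterior genes 1 of 10 and of genes known to rise 4 of 10. Of 6 genes known to fall 3 were lower. Of all 7954 genes 1.31% were higher and 1.7% lower. Dll3 was 72.7 against 25.1 CPM (1.54, 1.003 to 2.095) and Foxc2, a forkhead factor of paraxial mesoderm, 16.6 against 1.22 CPM (3.77, 1.76 to 6.89). Tbx6 was 13.8 against 9.78 CPM (0.50, -0.52 to 1.55) and Hes7, a target and oscillator of the segmentation clock, 9.001 against 7.33 CPM (0.30, -0.95 to 1.56). Of the genes that passed at MS-LS, Dll1, Notch1, Cer1, Pdgfra, Tbx20, Kdr and Sox17 did not pass here, with Kdr at a log2 ratio of -0.38 (-0.87 to 0.10). Mesp2 was 22.2 against 6.11 CPM (1.86, 0.80 to 3.05). None of 3 streak inducers passed.

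At EHF the Notch list no longer stood apart. None of its 7 tested genes was higher or lower, with Dll3 at 49.7 against 41.99 CPM (0.24, -0.27 to 0.73), against 1.77% higher and 3.42% lower of 9737 genes. Of segment determination, Pcdh19 (162 against 62.7 CPM, 1.37, 1.06 to 1.67) and Pcdh8 (1.36, 0.35 to 2.33) were higher and Cer1 was lower (-3.04, -4.94 to -1.65). Among posterior genes, Fgf8, the FGF of the posterior gradient, was 106 against 48.7 CPM (1.12, 0.75 to 1.48), its feedback inhibitor Dusp4 was higher (1.06, 0.33 to 1.76) and Wnt3a was lower, 8.64 against 29.1 CPM (-1.75, -3.00 to -0.72). Of 12 genes known to rise, Hand2 (17.3 against 4.20 CPM, 2.04, 0.93 to 3.16), Gata4, Tbx20, Smarcd3 and Snai1 were higher, and Kdr, a receptor of endothelial precursors, was lower (-1.15, -2.33 to -0.15). All 4 tested genes known to fall were lower, Foxa2, Sox17, Pou3f1 and Sox2. Of 4 somite genes, Tcf15 was higher (1.05, 0.42 to 1.67). The streak inducer Eomes was lower (-2.86, -5.94 to -0.94) and Wnt3 higher (1.66, 0.21 to 3.07). The difference of these log2 ratios between stages was not tested. Of the 60 listed genes, 42 were tested at MS-LS and 48 at EHF. Among the listed genes tested at both stages, the MS-LS interval lay above that of EHF for Dll1, Dll3, Epha4, Pcdh19, Rasgrp3, Pdgfra, Kdr and Eomes, and below it for Fgf8. How often intervals separate in this way over all genes was not counted, so nothing particular to the listed genes can be read from it.

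**Figure D4:**
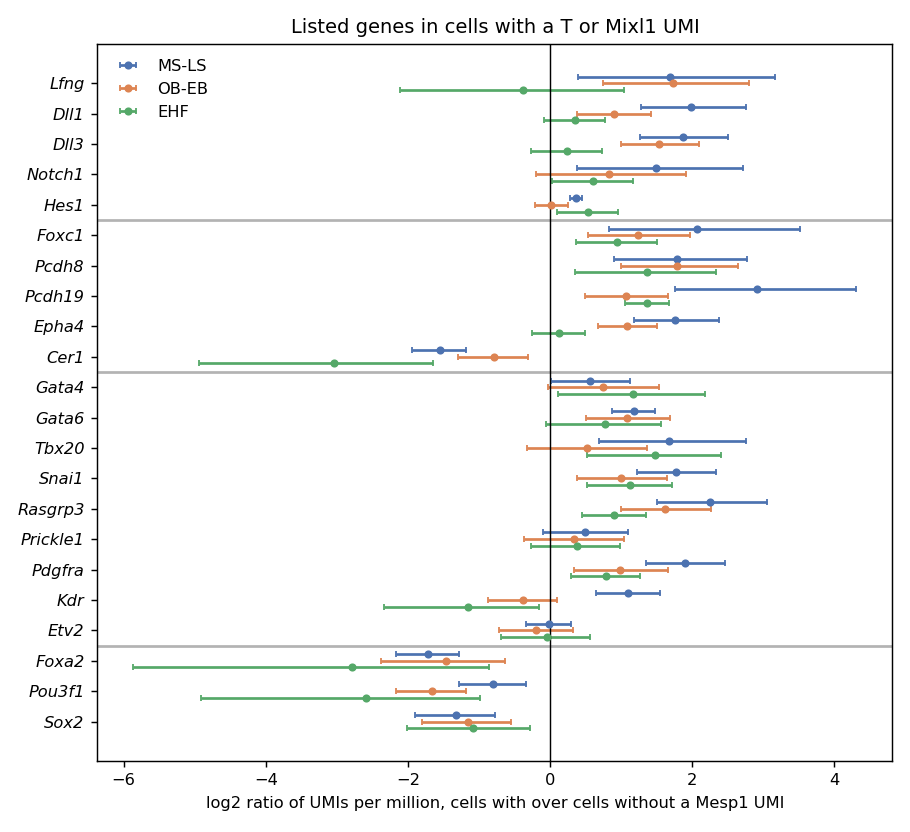
Log2 ratio of CPM between cells with and without a Mesp1 UMI among cells with a T or Mixl1 UMI (x axis), for listed genes tested in all 3 libraries (y axis), with 95% intervals and lines between the lists. Dll3 is at 1.87, 1.54 and 0.24 in MS-LS, OB-EB and EHF, and Sox2 lies below 0 in each.

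Among the 305 EHF cells with Tbx6, 9 held Mesp2 or Ripply2 and 296 held neither, with medians of 6359 and 5653 UMIs. Of the 9 cells, 4 held Mesp2, 5 held Ripply2 and none held both. Meox1 was found in 1 of the former and 4 of the latter. The values that follow pool the 9 cells and were not split by gene. All 5 tested genes of the segment determination list were higher in the 9 cells, against 2.01% of 7057 genes. Pcdh8 was 160 against 12.9 CPM (3.64, 2.40 to 4.76), Foxc2 160 against 19.0 CPM (3.07, 1.89 to 4.12), and Pcdh19 576 against 146 CPM (1.98, 1.43 to 2.48), with Foxc1 at 1.82 and Epha4 at 1.11. Of 4 tested somite genes, Meox1 (256 against 53.1 CPM, 2.27, 1.40 to 3.04) and Tcf15 (240 against 35.8 CPM, 2.75, 1.83 to 3.57), a factor of the epithelial somite, were higher. Mesp1 was 272 against 51.4 CPM (2.40, 1.56 to 3.16) and Rasgrp3 was higher (1.57, 0.62 to 2.40). T was lower, 32.0 against 365 CPM (-3.51, -6.56 to -1.65), as was Dusp6, with no UMI in the 9 cells, 1 of 10 posterior genes, against 0.836% of all genes. Of the Notch list 1 of 7 genes passed, Dll3 (1.30, 0.26 to 2.19). These cells come from 1 library and 9 is a small number of cells.

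The lists were also set between stages in whole libraries. From MS-LS to OB-EB 11 of 28 tested segmentation genes were higher and 2 lower, against 6.78% and 4.2% of all genes. Segment determination had 6 of 7 higher, with Tbx6 (39 to 71 UMIs, log2 ratio 1.43, 0.84 to 2.03), Foxc1 (2.25), Foxc2 (2.18), Pcdh19 (1.96), Pcdh8 (1.49) and Epha4 (1.30). Hes7 (3.19, 1.93 to 4.72) and Dll1 (1.51, 1.21 to 1.80) were higher and Hes1 (-1.73) was lower. From OB-EB to EHF 9 of 31 were higher and 6 lower, against 17% and 6.75%. Scaled by the median ratio of all genes, 6 were higher and 9 lower, so the balance of the 2 directions depends on the scaling. The shares of all genes under that scaling were not taken, so these 2 counts have no background beside them. Tbx6 (1.95, 1.59 to 2.33), Hes7 (2.66, 2.17 to 3.18), Aldh1a2, the enzyme of retinoic acid synthesis (6.72, 5.49 to 8.35), and Tcf15 (2.596, 2.22 to 2.99) were higher, and Pcdh8 (-1.86), Fgf8 (-1.38) and Spry2 (-4.36), an inhibitor of FGF signalling, were lower. Of 6 streak inducers, 5 were lower. From MS-LS to EHF 16 of 30 segmentation genes were higher and 8 lower, against 15.9% and 5.29% of 14306 genes. Mesp1, Mesp2 and Ripply2 were thus lower at EHF than at OB-EB while Tbx6 and Hes7 were higher.

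The genes most like each member were taken over 62 clusters of the 3 libraries by Pearson's r of log2(CPM + 10), among 11291 genes with at least 100 UMIs. Clusters share libraries and differ in depth, so r is a description. For Mesp1 they were Slpi (0.83), Rftn1 (0.79), Syndig1l (0.78), Lefty2 (0.78) and Evx1os (0.76). For Mesp2 they were Slpi (0.89), Lefty2 (0.85), Pcdh8 (0.84), Trim36 (0.76) and Mesp1 (0.75). For Ripply2 they were Foxc2 (0.72), 3110004A20Rik, Zeb2os, Crabp1 and Gfra3 (0.60 to 0.62). Ripply2 had r of 0.59 with Mesp1 and 0.50 with Mesp2. Msgn1, over the 30 EHF clusters and 9449 genes, was nearest to Hoxa2 (0.84), Aldh1a2 (0.83), Tbx6 (0.82), Rftn1 and Arg1 (0.80 each), and had r of 0.71 with Mesp1. Its 21 UMIs make this order unsure.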

How the data were processed

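Per the labels and the methods, Chromium 3′ libraries of pooled embryos were aligned and counted by the authors with Cell Ranger 3.0.2 against GRCm38 with reporter sequences added and filtered at 500 genes, 1000 UMIs and 3 SD of the mitochondrial share. All cells here passed the first 2 limits. The authors deposited raw UMI counts per gene and cell.

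The members and lists were chosen with earlier results of these data known. Sums of counts were divided by total UMIs (CPM). Clustering used Seurat 5.3.0 under R 4.3.3 (2000 variable genes, resolution 4.5 for EHF and 2 for the others, the 4 genes and vector sequences held out). A cluster was named from markers of 25 cell types where 3 or more were detected and the score led by 0.2. Named genes were the members, the lists, and the 5 nearest genes of each member. The Meox1 groups, the EHF clusters set against each other, the motifs, the reporter split and the exclusion of 1 cell were chosen after values were seen. Doublets were not removed, and Scrublet marked 9, 0 and 14 cells, so the highest 5% of scores were left out as an alternative. Ratios were tested on simulated data. Thinning, intervals and figures used Python 3.11.15, numpy 2.4.6, scipy 1.17.1 and scanpy 1.11.5. Depth was 12181436 to 20376539 UMIs a library. No sample was left without a group. Alternatives changed the cell filter, resolution, thinning, fold and scaling.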

Additional observations from a re-analysis of the deposited data

How the results depend on the processing

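Of 203 values under alternatives, 154 kept within the counting interval or within 1.5 times the count, 49 moved and none of the called ratios changed direction. Settings that gave no finite value were skipped and are not among the 203. Skipped were, for one, the ratios of EHF cells with Tbx6 and Meox1 to those with Tbx6 without Meox1, read after thinning. With the members among the variable genes, 0 MS-LS cells were named nascent mesoderm-like. Wide intervals are also easily kept, as for joint Mesp2 and Ripply2 at EHF, 26.2 within 0 to 125. No paired analysis was possible because each stage is 1 library and the groups share no second replicate. The 2 EHF tables hold the same counts, so leaving out either had to give the same ratios, -2.36 for Mesp1, -2.01 for Mesp2 and -0.82 for Ripply2. These values are among the 154 and test nothing. With extra-embryonic clusters left out, Mesp1 was 0.65 from MS-LS to OB-EB and -2.15 from OB-EB to EHF, where the mean of per-cell CPM gave -2.20. Median-ratio scaling moved all log2 ratios from OB-EB to EHF by 0.25.

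Levels of named classes moved with the clustering. In MS-LS nascent mesoderm-like cells Mesp1 was 318 CPM and Mesp2 33.5 CPM, and at lower resolution 269 and 22.8 CPM. In MS-LS streak-like cells Mesp1 was 124 CPM, and 93.5 CPM with doublets out before clustering and 102 CPM by the study's cell names. In EHF presomitic mesoderm-like cells, where an alternative could leave the Meox1-led cluster unnamed, Mesp1 was 54.0 CPM, and 29.8 at higher resolution, 69.5 at lower, 28.7 with members among the variable genes and 28.4 with doublets out. Mesp2 was 8.49 CPM, and 0.784, 0 and 0.789 at higher resolution, with members in and with doublets out. Ripply2 was 14.6 CPM, and 3.14, 22.5, 1.40 and 3.16 in the same 4 settings. Levels by T, Tbx6 and Meox1 use no names. There Mesp1 in EHF cells with T and Tbx6 over T only was -0.24, and -1.72 with groups read after thinning, with the cause not tested. The same setting gave -0.24 for Mesp1 in MS-LS cells with T and Eomes over T without Eomes, from 0.19.

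At a fold of 1.5, of the 60 listed genes those lower in cells with Mesp1 numbered 7 at MS-LS (4 at 2-fold) and 5 at OB-EB (3), those higher at EHF 18 (11), and 6 segmentation genes were lower from MS-LS to OB-EB (2). The shares of all genes past 1.5-fold were not taken, so a looser cut alone may raise these counts. Of the 5 nearest genes, 2 to 3 of those of Mesp1, 2 to 4 of Mesp2, 0 to 3 of Msgn1 and 0 to 2 of Ripply2 stayed under other measures, so these lists are unsure. Levels under about 3 UMIs in a group cannot be told from 0.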

Other observations

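Reporter RNA, a comparison added after the data were seen, was read beside the 4 genes at EHF. Of the EHF cells 403, 11.5%, held a UMI of the tdTomato sequence, which is recombined in cells that express T after tamoxifen and kept in their descendants. In extra-embryonic clusters 0.912% did. The cells with and without the reporter had medians of 5698 and 5565 UMIs, and those of the extra-embryonic clusters 7480.5 and 6631. A cell with no reporter UMI may still be labelled. Mesp1 was at 80.0 CPM in cells with the reporter and 14.8 CPM in the others (log2 ratio 2.44, 2.16 to 2.71), Msgn1 at 4.87 and 0.50 CPM (3.28, 1.91 to 4.70), Mesp2 at 4.87 and 0.95 CPM (2.36, 1.16 to 3.51) and Ripply2 at 8.12 and 1.79 CPM (2.18, 1.30 to 3.04). Within cells with a T or Mixl1 UMI Mesp1 was at 80.7 and 37.0 CPM (1.13, 0.74 to 1.51), and the intervals of the other 3 genes included 0. Within cells with Tbx6, 43.9% held the reporter and Mesp1 was at 67.1 and 51.4 CPM (0.38, -0.19 to 0.96). In the extra-embryonic clusters, the background, 8 cells held the reporter. Mesp1 was at 47.1 CPM in these 8 and 1.20 CPM in the others (5.29, 2.71 to 7.42), on 3 and 7 UMIs. Mesp1 was thus higher beside the reporter in background cells too, and the cause was not tested.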
